A study of Mus musculus with 4 samples.

Results

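The mRNAs of the ADAR enzymes and of transcripts known to be recoded by them were followed in the livers of obese mice with and without ADAR2. The genes were 10 of the 25655 in the deposited table, matched by their symbol: Adarb1 and Adar, which encode ADAR2 and ADAR1, and the recoded mRNAs Flna, Blcap, Cyfip2, Igfbp7, Tmem63b, Cog3, Copa and Azin1. All 10 passed the filter on low counts. Liver RNA had been sequenced in 2 libraries of HFD-WT mice (ADAR2+/+/GluR-B R/R) and 2 libraries of HFD-KO mice (ADAR2-/-/GluR-B R/R). The mice were bred from heterozygous parents on a B6129S background and received the high-fat diet (HFD) for 12 weeks from an age of 5 weeks. After its glucose and insulin tolerance tests the study turned its focus to male mice, and its text on the sequencing does not restate the sex. The GluR-B R/R allele was present in the wild-type and the knockout mice alike. In this allele the Q/R site of Gria2, the gene of GluR-B, is fixed in its edited form, which spares mice without ADAR2 from early death. The wild-type controls are thus wild type at Adarb1 but not at Gria2. No library of mice on a normal diet was analysed here. The study's legend for these data gives more mice per group than there are libraries, without saying how mice were assigned to libraries or whether they were pooled, so the p-values below describe the spread between these libraries, which may be technical.

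ADARs bind double-stranded RNA and convert adenosine to inosine, which ribosomes read as guanosine. An edited codon can therefore encode another amino acid, and such recoding is known from a small set of mRNAs shared by many mammals. ADAR1 is the main editor of repeat-derived double strands and keeps them from being sensed as viral, while ADAR2 is best known for recoding in the nervous system. Counts per gene measure how much of each mRNA was present and carry no base-level information, so the extent of editing was not measured.

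The edited positions below show which base of each recoded mRNA the enzymes act on. They were read from the mouse transcripts of GENCODE M21 (build GRCm38), 5′ to 3′ on the strand of the mRNA and within 1 coding exon. Capitals mark the adenosines that are known to be edited, and the codon was checked in each transcript to hold the expected amino acid. In Blcap, which encodes a small membrane protein, the capitals lie in codons 2, 5 and 15 (tyrosine to cysteine, glutamine to arginine and lysine to arginine; chr2:157558095-157558153, minus strand, exon 2 of 2). In Igfbp7, a secreted binding protein of insulin-like growth factors, they lie in codons 78 and 95 (arginine to glycine and lysine to arginine; chr5:77407716-77407797, minus strand, exon 1 of 6). Azin1, the antizyme inhibitor that spares ornithine decarboxylase, changes a serine to glycine and is the classical ADAR1 target in liver cells (chr15:38491597-38491626, minus strand, exon 11 of 12). Copa, a subunit of the COPI vesicle coat, changes isoleucine to valine (chr1:172092334-172092354, plus strand, exon 6 of 33). Cog3, a subunit of the Golgi tethering complex COG, has the same exchange (chr14:75719704-75719733, minus strand, exon 17 of 23). Cyfip2, a part of the WAVE complex that controls actin branching, changes lysine to glutamate (chr11:46272628-46272657, minus strand, exon 10 of 31). Flna, which encodes the actin crosslinker filamin A, changes glutamine to arginine close to the end of an exon (chrX:74226861-74226876, minus strand, exon 42 of 47). Tmem63b, a stretch-activated cation channel, also changes glutamine to arginine (chr17:45662934-45662963, minus strand, exon 20 of 24). The Q/R site of Gria2 is added because both genotypes carry it in edited form (chr3:80706897-80706926, minus strand, exon 11 of 16).
Blcap: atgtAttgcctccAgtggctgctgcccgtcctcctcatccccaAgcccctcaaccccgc
Igfbp7: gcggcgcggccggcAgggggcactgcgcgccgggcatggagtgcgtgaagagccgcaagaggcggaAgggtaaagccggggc
Azin1: atcaaattgtggaaAgctgtcttcttcctg
Copa: tccgcgtttgggatAtttctg
Cog3: tcaccattaaggaaAtttccctggacctca
Cyfip2: tggccagatacattAagaccagtgctcact
Flna: tgtttctagtcttcAg
Tmem63b: ggcctacgagttccAgtttggcgcagccta
Gria2: gggtgcctttatgcAgcaaggatgcgatat

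ADAR enzymes tend to avoid adenosines that follow a guanosine. Of the 11 sites in the 8 recoded mRNAs, 0 followed a G, 4 followed an A, 4 a C and 3 a T, while 28.5% of all 5700 adenosines in these coding sequences had a G before them. A G came after the edited base at 7 of the 11 sites and after 31.2% of all adenosines. These shares describe a short list of sites that were known beforehand, and no test was made of them.

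The total count was between 24480798 and 28691330 per library, so that 3 reads corresponded to 0.105 to 0.123 CPM (read counts scaled to the library size), a floor that covers counting error only. Values below are CPM on the TMM-adjusted library size unless TPM (counts scaled by gene length to a fixed sum per library) is named. The genotypes were compared by edgeR's quasi-likelihood test over 12967 genes, with Benjamini-Hochberg adjustment. An adjusted p under 0.05 was reached by 0.0771% of the genes tested and an unadjusted p under 0.05 by 8.98%. The hepatocyte markers, from Alb to Hnf4a, were all detected, with a summed level of 77881 to 90611 CPM per library. HFD-KO replicate 1 stood apart in B and plasma cell markers, with a sum of 89.8 CPM against 10.7 to 11.6 CPM in the other libraries.

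Adarb1, the targeted gene, was examined first (ENSMUSG00000020262, chromosome 10, 77126560 to 77254104, build GRCm39). Its expression was 15.7 and 19.8 CPM in HFD-WT livers and 6.23 and 9.55 CPM in HFD-KO livers, from 1391 reads in all. Both HFD-KO libraries lay below both HFD-WT libraries, in the direction of the labels. The expression left in HFD-KO livers was 44.3% of that in HFD-WT livers, with a 95% interval of 31.8% to 61.8% (log2 fold change -1.17, standard error 0.20). The unadjusted p was 0.00059 and the adjusted p = 0.159 by edgeR, which missed the threshold. The call depended on the procedure. The adjusted p was 0.0025 by edgeR with no filter on low counts and 0.00069 by DESeq2's Wald test. By edgeR it was 0.040 with the replicate number as a block, 0.165 with DESeq2 size factors and 0.139 with library size alone as scaling. With each library left out in turn, the log2 fold change was between -1.51 and -0.89. Such a fit has 1 library in one group, which is assumed to vary like the pair of the other group, so its p-values rest on the spread of that pair alone. On the HFD-WT pair alone the adjusted p by edgeR was 0.00023 without HFD-KO replicate 1 and 3.1e-07 without HFD-KO replicate 2, and on the HFD-KO pair alone it was 0.188 without HFD-WT replicate 1 and 0.971 without HFD-WT replicate 2.

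The reads on Adarb1 in HFD-KO livers thus stood far above the limit of detection. A gene-level count does not tell which exons were covered, so it cannot be read as ADAR2 protein or as an intact transcript. The replicates of HFD-KO differed by 0.62 on the log2 scale and those of HFD-WT by 0.34, both less than the difference between the groups. No other gene of the table overlapped the position of Adarb1.

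Next, Adar was examined to see whether the mRNA of the other active editor differed (ENSMUSG00000027951, chromosome 3, 89622329 to 89660753, GRCm39). Its expression was 32.8 and 30.03 CPM in HFD-WT livers and 34.4 and 30.2 CPM in HFD-KO livers. The groups overlapped, and the difference was 0.041 ± 0.098 (SE) on the log2 scale, with adjusted p = 0.929 by edgeR. The 95% interval ran from -0.19 to 0.27, so a level in HFD-KO livers of 87.8% to 121% of that in HFD-WT livers was compatible with these libraries. The sign of this small difference turned negative with the library size alone as scaling, and in 2 of the 4 fits that left out a library. The brain-enriched Adarb2, which encodes the inactive ADAR3, had 0, 0, 1 and 2 reads and was not detectable at this depth.

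**Figure D1:**
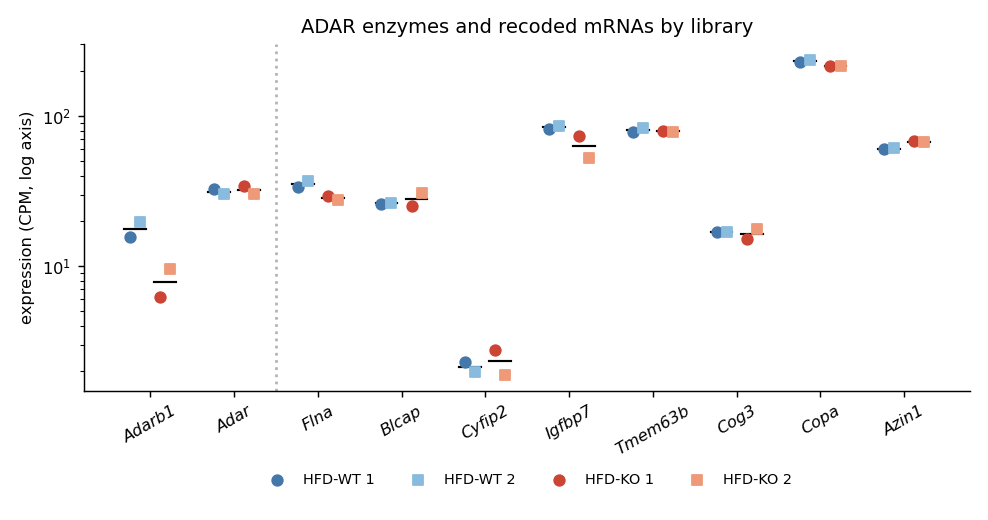
Expression of the 2 ADAR enzymes (left of the dotted line) and the 8 recoded mRNAs in CPM on a log axis. Each point is 1 library (circles replicate 1, squares replicate 2) and each short line the mean of a group (n = 2); Adarb1 has both HFD-KO points (6.23 and 9.55 CPM) below both HFD-WT points (15.7 and 19.8 CPM).

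To set the enzymes side by side, their TPM values were used. Adar had 10.9 and 10.2 TPM in HFD-WT livers and 10.9 and 9.86 TPM in HFD-KO livers. Adarb1 had 4.60 and 5.96 TPM in HFD-WT livers and 1.75 and 2.75 TPM in HFD-KO livers. Adar was thus the more abundant enzyme mRNA per length in all 4 libraries. The ratio of Adar to Adarb1 was 2.37 and 1.71 in HFD-WT livers and 6.25 and 3.58 in HFD-KO livers. The mean ratio was 2.04 ± 0.46 (SD, n = 2) in HFD-WT and 4.91 ± 1.89 (SD, n = 2) in HFD-KO livers, which is 2.41 times as high. Every HFD-KO ratio lay above every HFD-WT ratio, and the exact two-sided permutation test gave p = 0.333, the smallest p that 2 against 2 libraries allow. The share of Adarb1 in the summed TPM of both enzymes was 29.7% and 36.9% in HFD-WT livers and 13.8% and 21.8% in HFD-KO livers. The sum itself was 15.5 and 16.2 TPM in HFD-WT livers and 12.7 and 12.6 TPM in HFD-KO livers. For HFD-KO livers the ratio, share and sum count all reads assigned to Adarb1, which need not come from an intact transcript.

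**Figure D2:**
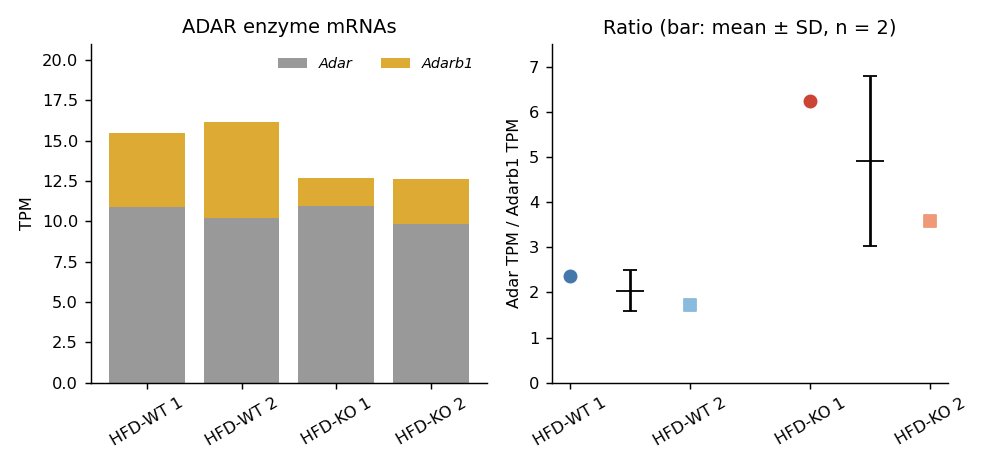
Left, TPM of Adar (grey) and Adarb1 (yellow) stacked for each library; right, the ratio of Adar to Adarb1 in each library with the mean ± SD of each group (n = 2). The Adar part stays between 9.86 and 10.9 TPM, and the ratio is 1.71 and 2.37 in HFD-WT against 3.58 and 6.25 in HFD-KO.

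The recoded mRNAs were then compared between the genotypes. Of the 8, 5 had a negative and 3 a positive log2 fold change, with a median of -0.036 against 0.0068 over all genes tested, and 0 reached an adjusted p under 0.05 by edgeR. An unadjusted p under 0.05 was found for 2 of 8, Flna and Igfbp7, both lower in HFD-KO livers, where 4.73% of all genes tested were lower and 4.25% higher at that threshold. By DESeq2's Wald test the same 2 mRNAs had unadjusted p-values of 0.026 and 0.010 and adjusted p-values of 0.748 and 0.436. The groups did not overlap for 4 of the 8, Flna, Igfbp7, Copa and Azin1, as for 40.8% of all genes tested.

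Flna (ENSMUSG00000031328, chromosome X, 73267067 to 73293426, GRCm39) had 33.5 and 37.0 CPM in HFD-WT livers and 29.2 and 27.4 CPM in HFD-KO livers. Both HFD-KO libraries were lower, with a log2 fold change of -0.32 (standard error 0.090, 95% interval -0.53 to -0.10, unadjusted p = 0.0092 and adjusted p = 0.372 by edgeR). The unadjusted p became 0.086 without HFD-WT replicate 2 and stayed under 0.05 in the other alternatives.

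Igfbp7 (ENSMUSG00000036256, chromosome 5, 77497087 to 77555888, GRCm39) had 81.6 and 86.2 CPM in HFD-WT livers and 73.3 and 52.6 CPM in HFD-KO livers. The log2 fold change was -0.41 (standard error 0.15, 95% interval -0.76 to -0.070, unadjusted p = 0.025 and adjusted p = 0.475 by edgeR). HFD-KO replicate 2 was the lowest library, and the HFD-KO replicates differed by 0.48 on the log2 scale, more than the groups did. The log2 fold change was -0.20 without HFD-KO replicate 2 and -0.67 without HFD-KO replicate 1. The latter had adjusted p = 3.0e-05 by edgeR, from 1 HFD-KO library and the spread of the HFD-WT pair alone. Its unadjusted p was above 0.05 when any of the other 3 libraries was left out, between 0.052 and 0.099.

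Copa (ENSMUSG00000026553, chromosome 1) was the mRNA with the most reads, at 231 and 237 CPM in HFD-WT livers and 215 and 215 CPM in HFD-KO livers. It was lower in both HFD-KO libraries, with a difference of -0.12 ± 0.078 (SE) on the log2 scale and adjusted p = 0.692 by edgeR. Azin1 (ENSMUSG00000037458, chromosome 15) had 60.1 and 61.0 CPM in HFD-WT livers and 68.5 and 66.7 CPM in HFD-KO livers. It was the single recoded mRNA that was higher in both HFD-KO libraries, with a log2 fold change of 0.16 (standard error 0.078, 95% interval -0.023 to 0.34, adjusted p = 0.614 by edgeR). These differences were small, and the sign of each was the same in all 9 alternatives.

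Blcap (ENSMUSG00000067787, chromosome 2) had 26.0 and 26.5 CPM in HFD-WT livers and 25.1 and 30.5 CPM in HFD-KO livers, so the HFD-WT values lay between the HFD-KO values. Cog3 (ENSMUSG00000034893, chromosome 14) had 16.8 and 16.9 CPM in HFD-WT livers and 15.2 and 17.7 CPM in HFD-KO livers, in the same arrangement. Tmem63b (ENSMUSG00000036026, chromosome 17) had 78.9 and 83.7 CPM in HFD-WT livers and 79.8 and 78.6 CPM in HFD-KO livers. The groups overlapped for all 3. Their log2 fold changes were 0.081 for Blcap (95% interval -0.17 to 0.33), -0.035 for Cog3 (-0.28 to 0.21) and -0.037 for Tmem63b (-0.22 to 0.15), and the adjusted p-values by edgeR were 0.858, 0.948 and 0.926.

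Cyfip2 (ENSMUSG00000020340, chromosome 11), known mainly from neurons and blood cells, was the rarest. It had 66 and 54 reads in HFD-WT livers and 73 and 45 reads in HFD-KO livers, or 2.28, 1.96, 2.77 and 1.88 CPM. Its log2 fold change of 0.14 had the widest interval of the 10 genes, from -0.51 to 0.79, and a difference within that range was not detectable at this depth.

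**Figure D3:**
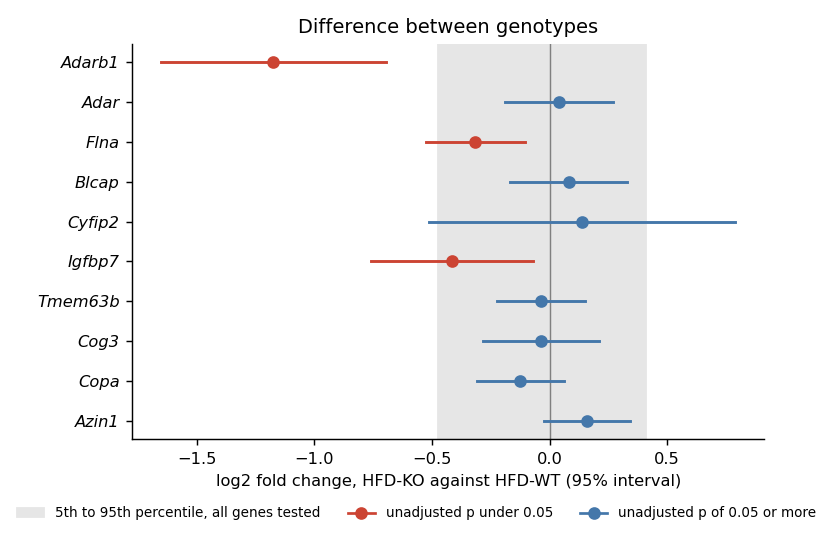
Difference between the genotypes on the log2 scale (below 0 is lower in HFD-KO), with its 95% interval for each gene, by edgeR. The grey band holds the 5th to 95th percentile of all genes tested (-0.48 to 0.41); only Adarb1, at -1.17, lies outside it, and the intervals of Flna and Igfbp7 also leave out 0.

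Flna and Igfbp7 are known to be strongly expressed by non-parenchymal cells such as endothelial and stellate cells, so the markers of such cells were read beside them. The 7 hepatic stellate cell markers summed to 344 and 393 CPM in HFD-WT livers and 306 and 256 CPM in HFD-KO livers, and 5 of 7 had a negative log2 fold change, 4 of them at an unadjusted p under 0.05. By this sum the libraries fell in the same order as those of Igfbp7, with HFD-KO replicate 2 lowest. Dcn was the largest part of the sum, at 179 and 202 CPM in HFD-WT livers and 165 and 119 CPM in HFD-KO livers. The order was not shared by all stellate markers. Rgs5 was highest in HFD-KO replicate 2, at 44.2 CPM, and Lrat differed little between the groups, with a log2 fold change of -0.093. The 7 Kupffer cell and macrophage markers summed to 227 and 290 CPM in HFD-WT livers and 180 and 180 CPM in HFD-KO livers, and 6 of 7 were negative, 5 at an unadjusted p under 0.05. The 7 sinusoidal endothelial markers summed to 237 and 261 CPM in HFD-WT livers and 230 and 247 CPM in HFD-KO livers, with 4 of 7 negative and 1, Lyve1, at an unadjusted p under 0.05. For comparison, 48.4% of the 12967 genes compared had a negative value, and 4.73% were lower in HFD-KO livers at that threshold. The smooth muscle markers Acta2, Myh11 and Tagln summed to 9.77 and 12.3 CPM in HFD-WT livers and 13.1 and 8.46 CPM in HFD-KO livers. The erythroid markers summed to 449 and 350 CPM in HFD-WT livers and 480 and 723 CPM in HFD-KO livers, highest in the library where Igfbp7 was lowest. Every marker of these lists had reads. The part of these cells in the values of Flna and Igfbp7 was not tested, and in bulk RNA fewer cells of a type cannot be told apart from less RNA per cell.

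**Figure D4:**
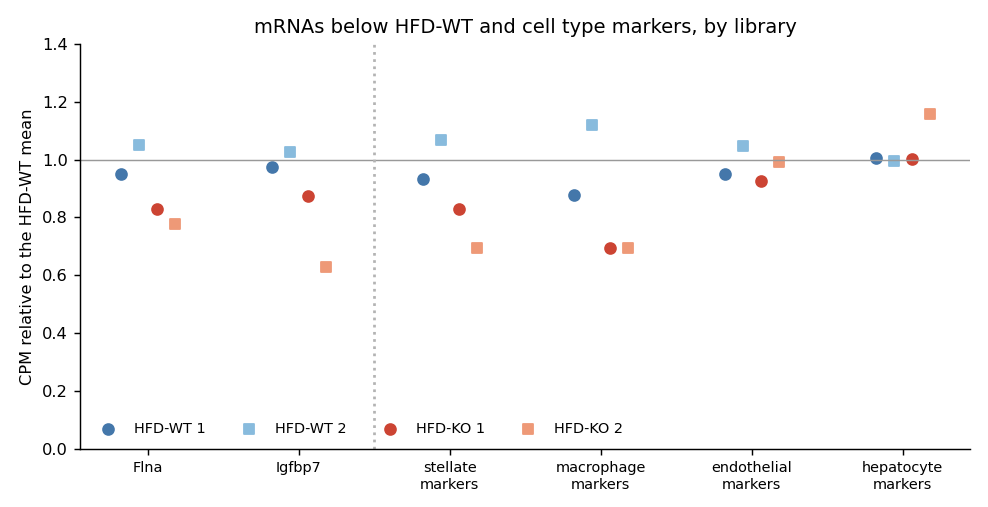
CPM of Flna and Igfbp7 and summed CPM of 4 marker lists, each divided by its HFD-WT mean; points are libraries. Stellate and macrophage marker sums of the HFD-KO libraries lie below both HFD-WT libraries, as do Flna and Igfbp7, while endothelial marker sums overlap.

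Because reads scale with transcript length, the abundance of the recoded mRNAs was ordered by TPM. In HFD-WT livers Igfbp7 led with 134 and 145 TPM, followed by Copa with 95.9 and 101 TPM and Tmem63b with 42.1 and 45.8 TPM. Azin1 and Blcap came next with means of 23.0 and 22.6 TPM, and their ranges overlapped, so that their order is not resolved. Adar followed at a mean of 10.5 TPM. Flna and Cog3, with means of 8.31 and 7.95 TPM, overlapped as well. Adarb1 was ninth and Cyfip2 last in every library, with means of 5.28 and 0.601 TPM in HFD-WT livers. In HFD-KO livers Igfbp7, at 115 and 85.2 TPM, overlapped with Copa, at 85.6 and 87.5 TPM, and Flna, at 6.51 and 6.27 TPM, stood below Cog3, at 6.78 and 8.12 TPM. Among genes with a read, Adarb1 stood at the 55.9th percentile of TPM in HFD-WT and the 44.6th in HFD-KO livers, and Adar at the 67.8th and 68.0th.

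**Figure D5:**
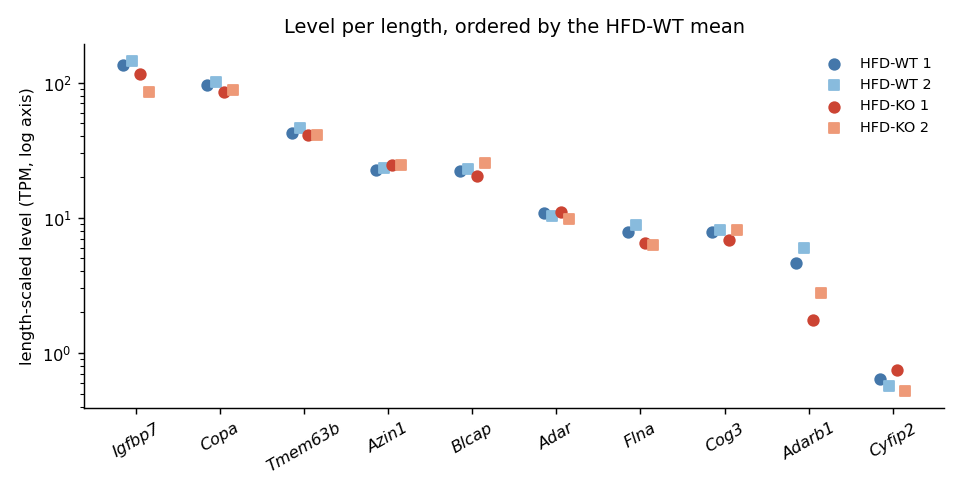
TPM of the 10 genes on a log axis, ordered by the HFD-WT mean, with 1 point per library. The levels run from 134 and 145 TPM for Igfbp7 down to 0.639 and 0.564 TPM for Cyfip2 in HFD-WT livers, and Adarb1 is ninth in every library.

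Other factors of A-to-I editing were read from a list of 23 names, which stand for 22 genes because Ddx15 is an older symbol of Dhx15. It holds the deaminases and inactive relatives, known modulators of ADAR activity such as Wwp2 and Aimp2, importins, and inosine-binding or inosine-cleaving proteins such as Snd1 and Endov. All 22 genes were in the table, and 19 were tested. Apart from Adarb1 and Adar, 17 were tested, and 0 of them had an unadjusted p under 0.05 by edgeR. Their log2 fold changes had a median of 0.071, and the highest was 0.32 for the tRNA deaminase Adat1. Of the 17, 13 were positive and 4 negative. Over all genes tested by edgeR, 48.4% were negative and 8.98% had an unadjusted p under 0.05. Adad1, the testis-specific relative, had 0 reads in every library, and Adad2 had 3, 0, 1 and 0 reads.

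A list of 16 other mRNAs known to be recoded held mostly transcripts of the nervous system, and 9 of the 16 were too low to test. Gria2, Grik2, Htr2c, Cadps and Unc80 had 0 reads in all 4 libraries, and Grik1, Kcna1 and Nova1 had 1, 1 and 2 reads in all. The amounts of these mRNAs could thus not be followed in these livers at this depth, that of Gria2 among them. The other 7 were tested, and 5 had a positive log2 fold change. Cacna1d, a calcium channel subunit, had 1.48 and 1.24 CPM in HFD-WT livers and 1.82 and 2.76 CPM in HFD-KO livers, a difference of 0.75 ± 0.31 (SE) on the log2 scale with adjusted p = 0.544 by edgeR. Its values rest on 34 to 66 reads per library.

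Finally, the genes with the profile most like that of Adarb1 over the 4 libraries were sought among 12942 genes with reads in each, by the Euclidean distance between log2 CPM values centred on their mean. The nearest were Cbr3, a carbonyl reductase, Ntrk2, the receptor of the neurotrophin BDNF, and Msc, a transcription factor, at distances of 0.11, 0.17 and 0.21, where the median over all genes was 1.32. Ntrk2 had 18.5 and 19.8 CPM in HFD-WT livers and 6.80 and 10.6 CPM in HFD-KO livers. Cbr3 had 3.94 and 5.24 CPM in HFD-WT livers and 1.48 and 2.43 CPM in HFD-KO livers. Msc had 18, 19, 7 and 9 reads. With 4 libraries such a likeness describes these samples and was not tested.

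The positions of 6 of the 10 genes overlap another gene on the opposite strand. The library kit keeps the strand, but whether counting used it is not given in the sources used here, so reads of overlapping partners may not be separated. The largest shared stretch was 7252 bases between Adar and Chrnb2, and Chrnb2 had 60 to 83 reads per library against 722 to 950 on Adar. Nnat, which lies within Blcap, had 0, 0, 3 and 3 reads, and Fndc9, within Cyfip2, had 0 reads in every library. Igfbp7 shared 85 bases with Polr2b, Copa 267 bases with Ncstn and Tmem63b 584 bases with Mrpl14. These partners had more reads. Polr2b had 799 to 968 reads per library against 1257 to 2371 on Igfbp7, and Ncstn 1055 to 1385 against 5124 to 6691 on Copa. Mrpl14 had 971 to 1195 reads per library against 1878 to 2302 on Tmem63b.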

How the data were processed

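Liver polyA RNA was sequenced in paired ends of directional libraries. Per the methods, the authors used an MGI Tech tool for alignment and then Partek Genomics Suite, annotated by GENCODE, for quantification. Tool versions and the handling of reads with several alignments are not given in the sources used here. The methods name mm10 and the submitters' processing notes name mm10 and GRCm39. The table's positions equal those of GENCODE M21 (GRCm38) for 564 of 25600 shared identifiers and for 0 of the 10 genes here, and are given as GRCm39. The deposited counts are whole reads per gene without normalization and are the values tested. The deposited TPM values, in which length and the library's sum are scaled out, were used for levels between genes. The deposited RPKM values and the deposited CPM values, a score on an adjusted library size, were not used.

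Counts were analysed with edgeR 4.0.16 in R 4.3.3 (filterByExpr, TMM, quasi-likelihood test, two-sided, Benjamini-Hochberg over 12967 genes). Standard errors are the log2 fold change over the root of F, and intervals are 95% on the t distribution. DESeq2 1.42.0, other scalings, no filter, a replicate block and leaving out each library were alternatives. In counts simulated for HFD-KO against HFD-WT, 179 of 200 genes changed 2-fold were recovered with 8 false calls among 12869 genes. Every simulated gene had the same spread between replicates, which real genes do not, so this share does not apply to the genes above. Replicates of a group were not the same library deposited again, as chi-square over degrees of freedom was 10.3 between the HFD-WT replicates and 41.0 between the HFD-KO replicates. Derived values used Python 3.11.15, pandas 2.3.3, scipy 1.17.1 and Biopython 1.88, and plots matplotlib 3.10.9.

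The genes named are the 10 enzymes and targets, listed factors and recoded mRNAs with an unadjusted p under 0.05 or under 3 reads, overlapping genes, and the 3 genes nearest to Adarb1. The genes and lists were chosen with earlier results of these data known. Adat1, the highest of the factors, and Adad2 were named after their values were seen. Results of some listed genes are not reported here.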

Additional observations from a re-analysis of the deposited data

How the results depend on the processing

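The direction of Adarb1 was the same in all 9 alternatives, with a log2 fold change of -1.18 with no filter on low counts, -1.17 by DESeq2's Wald test and -1.19 with the replicate block, and -1.51 to -0.89 with each library left out; in the first 3 of these fits it passed an adjusted p of 0.05. It also did so in both fits with 1 HFD-KO library. Adarb1 missed that threshold by edgeR with DESeq2 size factors and with library size alone as scaling. A fit with a library left out takes its spread from the pair of the other group alone, so its p-values and counts of calls bear on the call less than its log2 fold change. The numbers were not taken as pairs, since deviations of same-numbered libraries had an r of -0.076 over 12967 genes and the labels name no pairing. For Adar the sign turned with library size alone as scaling (-0.0036), and the range with a library left out was -0.055 to 0.13; library size alone moved all genes by a median of -0.046. Signs also turned with a library left out for Blcap (-0.065 to 0.22), Cyfip2 (-0.17 to 0.38), Tmem63b (-0.085 to 0.0086) and Cog3 (-0.15 to 0.073), while Flna, Copa, Igfbp7 and Azin1 kept theirs in all 9.

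Genes at an adjusted p under 0.05 numbered 10, and 6 with library size alone, 162 with no filter, 117 by DESeq2's Wald test, 20 with the replicate block and 0 to 705 with a library left out. The 0 was by edgeR without HFD-WT replicate 2, where 462 genes had an unadjusted p under 0.05, and the 705 without HFD-KO replicate 1. At an unadjusted p under 0.05 there were 1164 genes, 676 by DESeq2's Wald test and 462 to 2173 with a library left out. At that threshold the 8 recoded mRNAs gave 2, and 0 to 2 with a library left out (0 without HFD-WT replicate 2), the editing factors including the enzymes 1, Adarb1, and 1 to 3 (3 without HFD-KO replicate 1), and the other recoded mRNAs 2, and 1 with library size alone, DESeq2's Wald test or the replicate block, and 1 to 2 with a library left out. The Adar to Adarb1 ratio of HFD-KO over HFD-WT, 2.41, was 1.76 to 3.06 with a library left out. The causes were not tested. With 2 libraries a group, differences below the printed intervals could not be resolved.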
